A study of Homo sapiens with 6 samples.

Results

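The mRNAs described here encode 43 lysosomal hydrolases and lysosomal membrane proteins, taken by gene name from the 60655 genes of a count table from RNA immunoprecipitation followed by sequencing (RIP-seq) in WaGa cells. WaGa is an established Merkel cell carcinoma (MCC) cell line that carries Merkel cell polyomavirus, and the labels give it as wild type and untreated. RNA that came down with an antibody against IGF2BP3 (named IMP3 in the labels), an RNA-binding protein, was compared with RNA that came down with control IgG, in 3 libraries per group numbered 1 to 3. The series calls the replicates independent. The question the comparison addresses is which RNAs are bound by IGF2BP3. In the edgeR fit used here 169 RNAs were past the enrichment thresholds, and DESeq2, the program the authors used, gave 281. The list was drawn up with this comparison known, around *PLBD2* and *TPP1*, which hold ranks 1 and 4 by log2 fold change among the 169. The differences between the antibodies are therefore given as a description of the 43 genes, without p-values, and nothing is read from how many of them are past a threshold.

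Lysosomes are acidic organelles in which proteins, glycans, sulfated polysaccharides and lipids are broken down by soluble hydrolases. Most of these hydrolases are made in the endoplasmic reticulum, tagged with mannose 6-phosphate in the Golgi apparatus and carried to the lysosome by receptors. The organelle's membrane holds heavily glycosylated structural proteins, transporters, channels and the proton pump, and many of the genes share a promoter element read by transcription factors of the MiT/TFE family, such as TFEB. Loss of single members causes lysosomal storage diseases. IGF2BP3 binds mRNAs and has been linked to their stability and translation, and the motif UGGAC has been described for the IGF2BP proteins at methylated adenosines.

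*PLBD2* and *TPP1* are shown first, since they stand apart from the other genes. *PLBD2* (ENSG00000151176), which encodes a soluble lysosomal protein with a phospholipase B domain, is located at chr12:113358566-113391629 (GRCh38, plus strand), and its canonical transcript has 12 exons and 4787 bases (GENCODE version 44). *TPP1* (ENSG00000166340), which encodes tripeptidyl peptidase, a serine protease that removes tripeptides from the ends of proteins and is lost in a form of neuronal ceroid lipofuscinosis, is located at chr11:6612768-6619448 (minus strand), and its canonical transcript has 13 exons and 3492 bases. The motif TGGAC, written in DNA letters and searched on the transcript strand, occurs 5 times in the *PLBD2* transcript, 4 of them in the coding sequence, and 3 times in the *TPP1* transcript, 2 of them in the coding sequence. Coding stretches with the motif in capitals are printed because they are the RNA that the comparison is about. The first lies in exon 8 at chr12:113384862-113384891 on the plus strand, the second in exon 10 at chr12:113387053-113387082 on the plus strand, and the *TPP1* stretch in exon 7 at chr11:6616747-6616776 on the minus strand.
PLBD2, exon 8: agtggatgatcgTGGACtacaaggcgttca
PLBD2, exon 10: tggtacaagacaTGGACtccatggtcaggc
TPP1, exon 7: agcccgtgtggtTGGACaacagggccgggg
The motif is common. It was present in 94.2% of the 11864 tested protein-coding transcripts and in 38 of the 40 lysosomal transcripts that passed the expression filter. Per kilobase, *PLBD2* held 1.04 and *TPP1* 0.859 matches, both under the median of 1.12 over all tested coding transcripts. ACACA, a CA-rich motif searched in the same way, was present in 87.9% of them, with 0.627 and 0.286 matches per kilobase in *PLBD2* and *TPP1* and a median of 1.00 over all.

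A sequence shared by part of the group lies in the promoters. RefSeq promoters (250 bases before to 50 after the start, GRCh38.p14) were matched for 33 of the 43 genes. The palindrome TCACGTGA, the core of the coordinated lysosomal expression and regulation (CLEAR) element to which TFEB binds, was found in 7 of these 33, against 1.18% of all 27305 genes with a promoter and 2.30% of the 10188 tested genes among them. CACGTG, which lies within it, was found in 12 of 33, against 8.77% of all genes and 12.8% of the tested genes. Both read the same on either strand. *TPP1* has neither of them, but holds the related TCACATGA, which was found in 4 of 33 promoters and, on either strand, in 1.24% of all genes and 1.21% of the tested genes. One window per gene is printed for the 7 genes and for *TPP1*, with the motif in capitals. The plus strand windows lie at chr12:113358551-113358580 for *PLBD2*, chr20:45891298-45891327 for *CTSA*, chr17:80101493-80101522 for *GAA*, chr13:113297199-113297228 for *LAMP1* and chr19:7522571-7522600 for *MCOLN1*. Those on the minus strand lie at chr16:28492058-28492087 for *CLN3*, chr16:88857104-88857133 for *GALNS* and chr11:6619413-6619442 for *TPP1*.
PLBD2: gcagagcgcagTCACGTGAcccgggctgcg
CTSA: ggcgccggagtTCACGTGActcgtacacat
GAA: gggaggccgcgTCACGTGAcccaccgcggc
LAMP1: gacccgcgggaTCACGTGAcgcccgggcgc
MCOLN1: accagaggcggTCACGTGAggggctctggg
CLN3: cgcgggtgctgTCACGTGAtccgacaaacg
GALNS: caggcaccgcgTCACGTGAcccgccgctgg
TPP1: catgtgatccgTCACATGAcagcagatccg
A match describes these letters only. The promoter bases before the transcript start are not part of the RNA that was precipitated. The promoters also hold 50 bases after the start, and the *TPP1* window lies within the gene bounds given above.

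Library totals ran from 9758759 to 14886414 counts on genes. Of the 43 genes, 40 passed the expression filter of edgeR, as did 14507 genes in all. In both groups the library of replicate 1 differed most, with a chi-square per degree of freedom of 18.2 to 21.9 between replicate 1 and the other libraries of its group, against 2.20 and 3.25 between replicates 2 and 3. The libraries carried the profile of the labelled tumor. Of 12 markers of MCC, 11 were above 1 TPM in every library, among them *KRT20*, *CHGA* and *ATOH1*, and *NEUROD1* was at 0 to 0.09 TPM. Of 6 macrophage markers, 4, among them *PTPRC* and *CSF1R*, were listed at 0 in every library, with summed levels of 0.32 to 0.66 TPM in IgG IP and 0.19 to 0.33 TPM in IGF2BP3 IP. Of 5 fibroblast markers *COL3A1* was at 0 in every library, and only *DCN* was above 1 TPM in all, at 29.2 to 54.1 TPM. Of 4 keratinocyte markers *KRT14* and *KRT1* were at 0, *KRT5* was at 0.54 to 1.33 TPM and *KRT10* at 5.44 to 7.99 TPM.

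In the IGF2BP3 IP, the mRNAs of *PLBD2* and *TPP1* were several times as abundant as in the IgG IP. Of the 40 tested lysosomal mRNAs, 26 differed by less than 0.3 on the log2 scale, where 11193 of all 14507 tested genes did. *PLBD2* had normalized CPM (the share of a library's counts scaled by TMM) of 14.7, 25.8 and 24.1 in IGF2BP3 IP replicates 1 to 3 and of 5.31, 4.42 and 4.27 in IgG IP replicates 1 to 3. The groups did not overlap, and the lowest IGF2BP3 IP value was that of replicate 1. The mean was 21.5 ± 5.98 (SD, n = 3) against 4.67 ± 0.561 (SD, n = 3), a log2 fold change (± SE) of 2.22 ± 0.23, or 4.64-fold. *TPP1* had 8.48, 11.9 and 11.5 normalized CPM in IGF2BP3 IP replicates 1 to 3 and 3.58, 2.28 and 2.98 in IgG IP replicates 1 to 3. Here too the groups did not overlap and replicate 1 gave the lowest IGF2BP3 IP value and the highest IgG IP value. The mean was 10.7 ± 1.89 (SD, n = 3) against 2.95 ± 0.650 (SD, n = 3), a log2 fold change (± SE) of 1.88 ± 0.23, or 3.68-fold. CPM are shares of a library, so the number of cells in a lysate and the RNA per cell cannot be told apart.

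*PLBD2* ranked 2 and *TPP1* ranked 7 by log2 fold change among all 14507 tested genes. They rested on 49 to 341 and on 33 to 158 counts per library. Within libraries of the same number, the log2 ratio of CPM + 0.5 was 1.39, 2.42 and 2.37 for *PLBD2* and 1.14, 2.16 and 1.79 for *TPP1* in replicates 1 to 3. In TPM, the length-normalized estimate made by the authors with RSEM, *PLBD2* was at 4.60, 8.74 and 7.81 in the IGF2BP3 IP and at 1.11, 1.22 and 1.04 in the IgG IP. *TPP1* was at 10.7, 10.9 and 9.98 TPM in the IGF2BP3 IP and at 2.13, 1.89 and 3.94 TPM in the IgG IP. On this scale *TPP1* had nearly the same value in all IGF2BP3 IP libraries, replicate 1 included. *SLC8B1*, on the opposite strand, overlaps 928 bases of *PLBD2*, and its log2 fold change was 0.03. A long noncoding RNA gene on the same strand covers 3827 bases of *TPP1* (ENSG00000285338) and held 0 counts in every library. Whether reads in the shared bases were left out of the counts of *TPP1* was not tested.

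**Figure D1:**
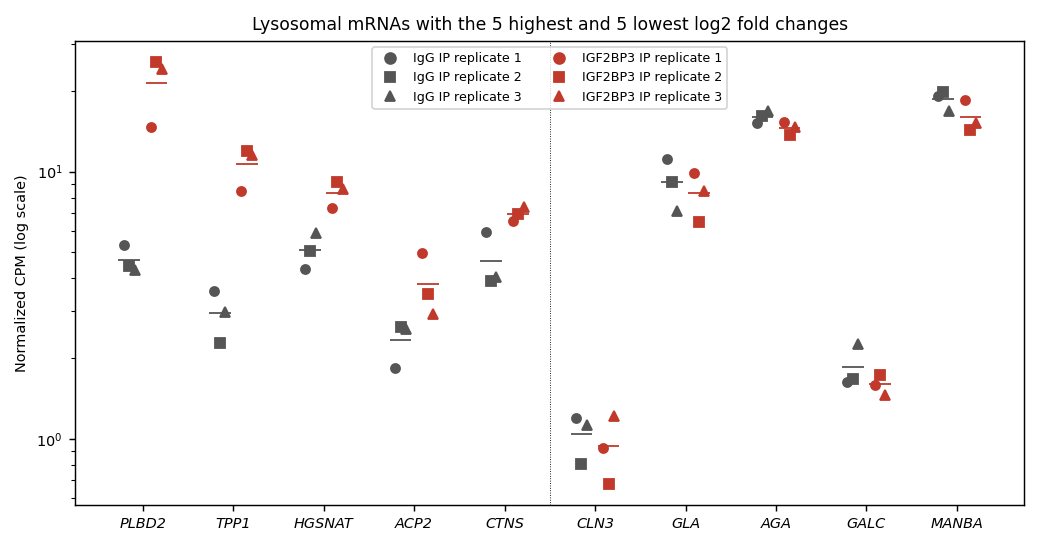
Normalized CPM (log axis) in each library for the lysosomal mRNAs with the 5 highest (left of the dotted line) and 5 lowest (right) log2 fold changes; grey is IgG IP, red is IGF2BP3 IP, symbols mark replicates 1 to 3 and bars the group means. The groups are apart for the 5 genes on the left, most widely for *PLBD2* (14.7 to 25.8 against 4.27 to 5.31), and overlap for the 5 on the right.

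At 1.5-fold or more and an adjusted p-value under 0.05 in edgeR's quasi-likelihood test over all genes, 2 of the 40 tested lysosomal mRNAs, *PLBD2* and *TPP1*, were past the thresholds as higher, where 1.16% of all tested genes were. No tested lysosomal mRNA was past them as lower (0% of all genes), and 0 of the 40 were at least 1.5-fold lower at an unadjusted p-value under 0.05, as against 59 of all genes. DESeq2, over the 29184 genes with any count, gave the same counts of 2, where 0.963% of all genes were past the thresholds, and 0. Genes that DESeq2 left without an adjusted p-value stayed in this total, so its share is not like that of the filtered genes. With the replicate number as a block, 4 were past the thresholds, the others being *HGSNAT* and *CTNS*, where 3.56% of all genes were. The calls depended on which libraries were used, as did those over all genes, while the fold changes stayed close. Without IGF2BP3 IP replicate 2 or IgG IP replicate 3, 0 of the genes were past the thresholds, with 5 and 4 past 1.5-fold with an unadjusted p-value under 0.05, where 473 of 14837 and 655 of 14880 genes were. In these fits *PLBD2* was at 2.06 and 2.16 and *TPP1* at 1.78 and 1.90 on the log2 scale. Without IGF2BP3 IP replicate 3 or IgG IP replicate 2 only *PLBD2* was. In these 4 fits between 0 and 23 of all genes were past the thresholds, and *PLBD2* and *TPP1* both stayed past them without replicate 1 of either group.

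The log2 fold changes of the 40 tested lysosomal mRNAs ran from -0.22 to 2.22 with a median of 0.15, and the median of all tested genes was -0.01. Of the 40, 27 had a positive value, where 48.9% of all genes did, and 5 were at least 1.5-fold higher, where 5.30% of all genes were. In 11 of the 40 the lowest IGF2BP3 IP value exceeded the highest IgG IP value, as it did in 12.0% of all genes, and the opposite order was found for 0 of the 40 and 8.69% of all genes. Without *PLBD2* and *TPP1* the remaining 38 had a median of 0.11 and a highest value of 0.71. Between -0.3 and 0.3 lay 26 of the 40, and 11193 of the 14507 genes.

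**Figure D2:**
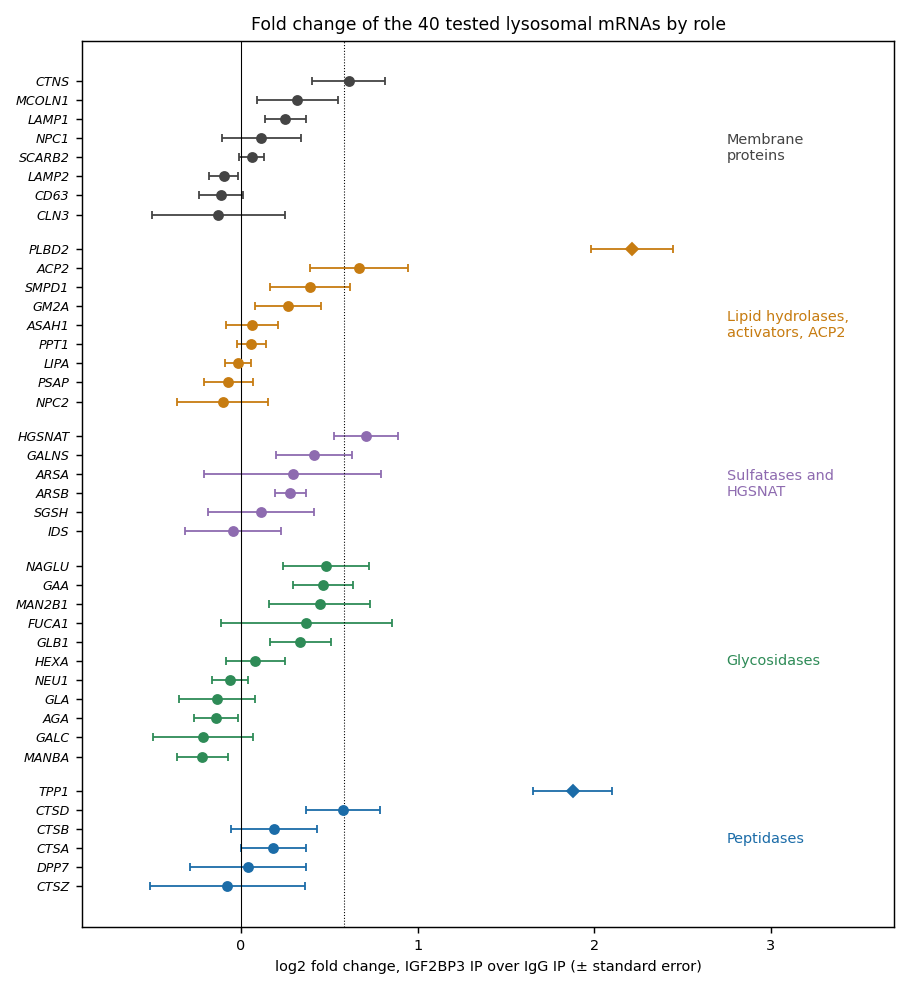
Log2 fold change of IGF2BP3 IP over IgG IP with its standard error for the 40 tested lysosomal mRNAs, grouped by role; diamonds mark the 2 genes past the thresholds, the solid line is 0 and the dotted line the 1.5-fold minimum. *PLBD2* (2.22) and *TPP1* (1.88) lie apart from all others, which end at 0.71.

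Among the peptidases, *TPP1* was the only gene over the 1.5-fold minimum, and the median of the 6 tested genes was 0.18. *CTSD*, which encodes the aspartic protease cathepsin D, followed with 4.62, 4.38 and 4.55 normalized CPM in the IGF2BP3 IP and 3.47, 2.48 and 3.23 in the IgG IP, a log2 fold change (± SE) of 0.58 ± 0.21 just under the minimum. The groups did not overlap. *CTSB*, a cysteine protease, was at 0.19, *CTSA*, the protective protein that also holds NEU1 and GLB1 in a complex, at 0.18, and the dipeptidyl peptidase *DPP7* at 0.04. *CTSZ* was at -0.08 on 10 to 18 counts per library. *CTSZ* had at most 0.17 TPM in any library and overlaps 9448 bases of *NELFCD* on the opposite strand, which held 351 to 636 counts, so the reads of *CTSZ* are uncertain. *CTSL* was listed at 0 in counts and TPM in every library, which allows up to 0.201 to 0.325 CPM per library (3 counts, counting error only).

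The glycosidases, which trim sugars from glycoproteins and glycolipids, included the lowest single values of the group. Of 11 tested glycosidases 6 had a positive log2 fold change and none reached the 1.5-fold minimum. Their median was 0.08, against 0.06 for the genes for lipid breakdown. *MANBA*, the beta-mannosidase, had the lowest log2 fold change of all, -0.22 ± 0.14 (SE), with 18.6, 14.3 and 15.2 normalized CPM in the IGF2BP3 IP and 19.2, 19.8 and 16.9 in the IgG IP. The groups overlapped, and replicate 1 was the highest IGF2BP3 IP library. *GALC*, which removes galactose from galactosylceramide, had a log2 fold change (± SE) of -0.21 ± 0.28, with 1.60, 1.74 and 1.46 normalized CPM against 1.63, 1.68 and 2.26. *AGA*, which cleaves the bond between asparagine and its linked sugar, was placed with the glycosidases. It was at -0.14 ± 0.12 (SE), with 15.4, 13.7 and 14.6 against 15.2, 16.1 and 16.9. *GLA*, the alpha-galactosidase lost in Fabry disease, was also at -0.14 ± 0.22 (SE), with 9.91, 6.50 and 8.45 against 11.2, 9.18 and 7.10. In all of these the groups overlapped. At the other end, *NAGLU*, an enzyme of heparan sulfate breakdown, was at 0.48, *GAA*, the acid glucosidase that degrades glycogen, at 0.46 and *MAN2B1* at 0.44. Only for *GAA* did the groups not overlap, with 11.2, 9.21 and 9.10 normalized CPM in the IGF2BP3 IP against 6.07, 7.10 and 8.15 in the IgG IP.

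In the set of the sulfatases and *HGSNAT*, *HGSNAT* had the highest value. It encodes the membrane-bound acetyltransferase that acts on heparan sulfate, and had 7.30, 9.14 and 8.62 normalized CPM in the IGF2BP3 IP against 4.34, 5.03 and 5.89 in the IgG IP. The groups did not overlap, and the log2 fold change was 0.71 ± 0.18 (SE). *HGSNAT* was past the thresholds with the replicate block, at 0.72, and not without it. The sulfatases *GALNS* and *ARSB*, which remove sulfate from keratan and dermatan sulfate, followed with log2 fold changes of 0.41 and 0.28 and also with groups that did not overlap. *ARSB* was the most deeply covered of them, with 786 to 1568 counts per library, and its means were 109.9 ± 8.51 (SD, n = 3) and 90.5 ± 5.27 (SD, n = 3) normalized CPM. *ARSA*, *SGSH* and *IDS* had values of 0.29, 0.11 and -0.05 on counts of at most 17, 38 and 50 in any library, and each value was smaller than its standard error (0.50, 0.30 and 0.27). In TPM *IDS* was not low, with a mean of 7.5 TPM over all libraries. A coding gene on the same strand covers 43993 of its bases, so the counts of *IDS* are uncertain.

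Among the genes for lipid breakdown, *PLBD2* was followed by *ACP2*, which encodes the lysosomal acid phosphatase and was placed with them. *ACP2* had 4.95, 3.47 and 2.93 normalized CPM in the IGF2BP3 IP against 1.84, 2.61 and 2.58 in the IgG IP. The groups did not overlap, but replicate 1 carried most of the difference, with a log2 ratio of 1.22 against 0.35 and 0.15 within replicates 2 and 3. The log2 fold change was 0.67 ± 0.28 (SE). *SMPD1*, the acid sphingomyelinase, was at 0.39 with overlapping groups, and *GM2A*, the activator that presents the ganglioside GM2 to its hexosaminidase, at 0.27. The most abundant mRNAs of this set were flat. *LIPA*, the acid lipase that hydrolyses cholesteryl esters, had 347.2, 362.7 and 339.1 normalized CPM in the IGF2BP3 IP and 362.9, 350.4 and 349.8 in the IgG IP, a log2 fold change (± SE) of -0.02 ± 0.07. *PPT1*, the palmitoyl-protein thioesterase, was at 0.06 ± 0.08 (SE) from 85.0, 92.8 and 82.7 against 83.6, 83.4 and 83.2. *PSAP*, the precursor of the saposins that help degrade sphingolipids, was at -0.07 ± 0.14 (SE) from 78.7, 101.5 and 100.1 against 80.8, 111.6 and 101.9. In *PSAP* the spread was between replicate 1 and the other replicates rather than between the antibodies. *ASAH1*, the acid ceramidase, was at 0.06 and *NPC2*, which hands cholesterol to NPC1, at -0.10.

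The membrane proteins had a median of 0.09 over 8 tested genes. *CTNS*, which encodes cystinosin, the exporter of cystine, had the highest log2 fold change, 0.61 ± 0.21 (SE), with 6.55, 6.95 and 7.40 normalized CPM in the IGF2BP3 IP against 5.96, 3.89 and 4.03 in the IgG IP. The groups did not overlap, and IgG IP replicate 1 was close to the IGF2BP3 IP. *CTNS* was past the thresholds with the replicate block, at 0.62, and not without it. With the GC correction added to the block *CTNS* was at 0.49 and not past them. *HGSNAT* was then at 0.68 and past them, where 268 of 14479 genes were past them as higher. *LAMP1* and *LAMP2*, the major glycoproteins of the lysosomal membrane, differed from each other in the observed value. *LAMP1* was at 0.25 with groups that did not overlap and *LAMP2* at -0.10 with overlapping groups, and the difference between the genes was not tested. *SCARB2*, the sorting receptor of glucocerebrosidase, had 307.9, 323.0 and 309.0 normalized CPM against 306.5, 301.8 and 294.2, a log2 fold change (± SE) of 0.06 ± 0.07 in spite of groups that did not overlap. *CD63*, a tetraspanin, was at -0.11 ± 0.13 (SE) from 41.3, 34.5 and 40.9 against 47.7, 36.5 and 42.3. The calcium channel gene *MCOLN1* was at 0.32 and the cholesterol exporter gene *NPC1* at 0.11. *CLN3*, a membrane protein lost in juvenile neuronal ceroid lipofuscinosis, had 0.923, 0.680 and 1.22 normalized CPM against 1.19, 0.804 and 1.13, a log2 fold change (± SE) of -0.13 ± 0.38 on 9 to 15 counts per library. In TPM its direction turned, with 4.61, 2.79 and 4.32 TPM in the IGF2BP3 IP against 2.08, 3.23 and 3.10 TPM, or 0.36 on the log2(TPM + 1) scale, and a coding gene on the same strand covers 17988 of its bases. *TCIRG1*, a subunit of the proton pump, and *IDUA*, the iduronidase of the glycosidase set, did not pass the filter, with 5 to 14 and 0 to 9 counts per library.

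The level of the mRNAs in the precipitated RNA, compared per length in TPM, differed far more between the genes than between the antibodies. No input RNA is among the 6 libraries, so levels in the cells were not measured. *LIPA* was the highest, with 148.9, 207.3 and 187.1 TPM in the IGF2BP3 IP and 131.6, 184.3 and 183.2 TPM in the IgG IP. *SCARB2* (93.2 TPM over all 6 libraries), *CD63* (65.2 TPM), *PSAP* (57.2 TPM) and *PPT1* (47.6 TPM) followed. The spread between libraries of a group, such as 17.4 TPM (SD, n = 3) for *PSAP* in the IGF2BP3 IP, was larger than the gaps from *PSAP* to *CD63* and to *PPT1*, so the place of *PSAP* between them is not resolved, whereas *CD63* was above *PPT1* in 6 of 6 libraries. The same 5 genes led in FPKM. Of all 43, 9 had a mean under 1 TPM, among them *CTSB* (0.973 TPM). In the IgG IP, *PLBD2* was at 1.12 ± 0.0907 TPM (SD, n = 3), and in the IGF2BP3 IP at 7.05 ± 2.17 TPM (SD, n = 3). The median over the tested members was 6.21 TPM, under the 14.1 TPM of all tested coding genes. All 43 genes together took 0.129% to 0.140% of the counts of an IgG IP library and 0.139% to 0.152% of those of an IGF2BP3 IP library.

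**Figure D3:**
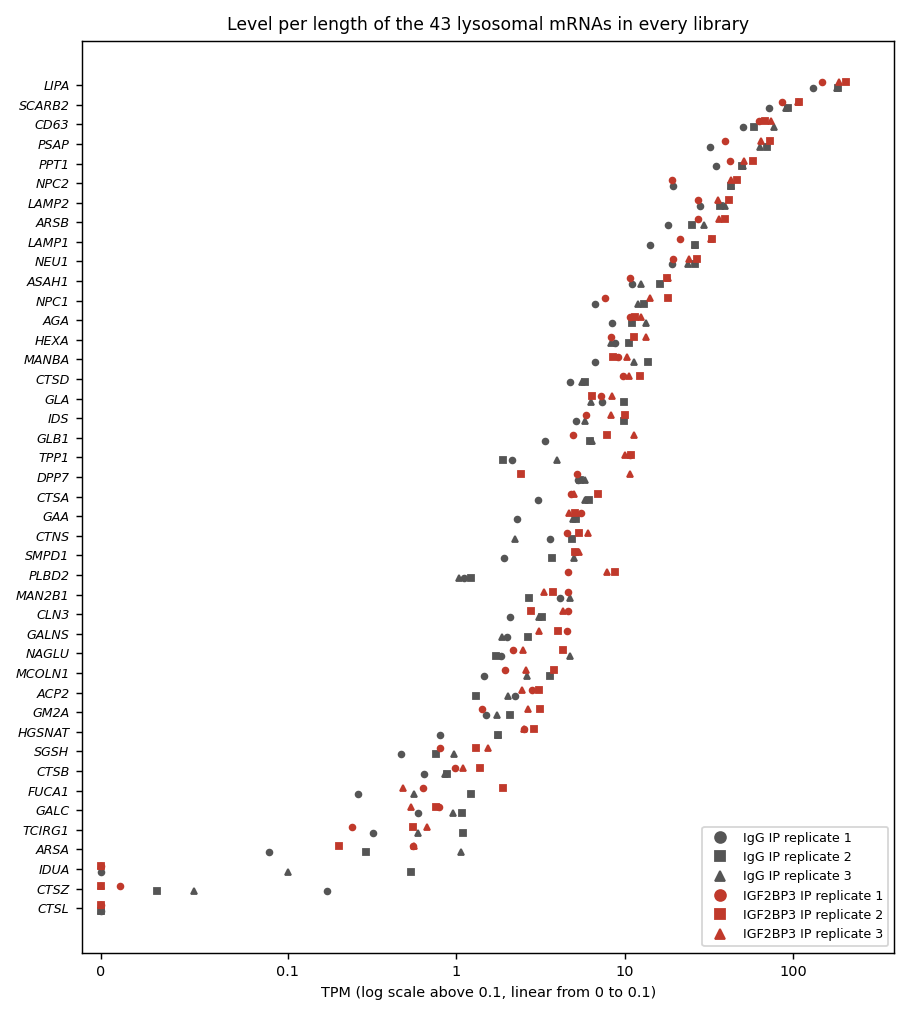
TPM of the 43 lysosomal mRNAs in each library (log scale above 0.1, linear below), ordered by the mean over all 6 libraries; grey is IgG IP, red is IGF2BP3 IP and symbols mark replicates. Levels run from 0 (*CTSL*) to over 100 TPM (*LIPA*), and above 1 TPM the red and grey points separate most for *PLBD2* and *TPP1*.

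The fold changes went with the base composition of the transcripts, among lysosomal mRNAs as among all mRNAs. Over the 40 tested members, Spearman's rho between GC content and log2 fold change was 0.48, and over the 11864 tested coding genes it was 0.49 (a description, since all points share the same 6 libraries). The members had a median GC content of 51.8%, above the 47.8% of all tested coding genes. With GC content of at least 55%, a limit set after the values were seen, the 17 members had a median log2 fold change of 0.39 and the 3521 coding genes one of 0.18. Under 55%, the medians were 0.06 for 23 members and -0.05 for 8343 coding genes. After correcting each library for GC content, the member medians became 0.20 and 0.05, and those of the coding genes -0.01 and -0.02. The rho over members was then 0.14. *CTSD* (63.6% GC) went from 0.58 to 0.35, *CTNS* from 0.61 to 0.48 and *ACP2* from 0.67 to 0.51, all below the 1.5-fold minimum. *PLBD2* (55.4% GC) went from 2.22 to 2.08 and *TPP1* (50.5% GC) from 1.88 to 1.81, and both stayed past the thresholds, where 0.566% of all genes were. *HGSNAT* (48.9% GC) stayed at 0.67. Low level went with higher fold change too, with a rho between TPM and log2 fold change of -0.38 over members and -0.37 over coding genes.

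**Figure D4:**
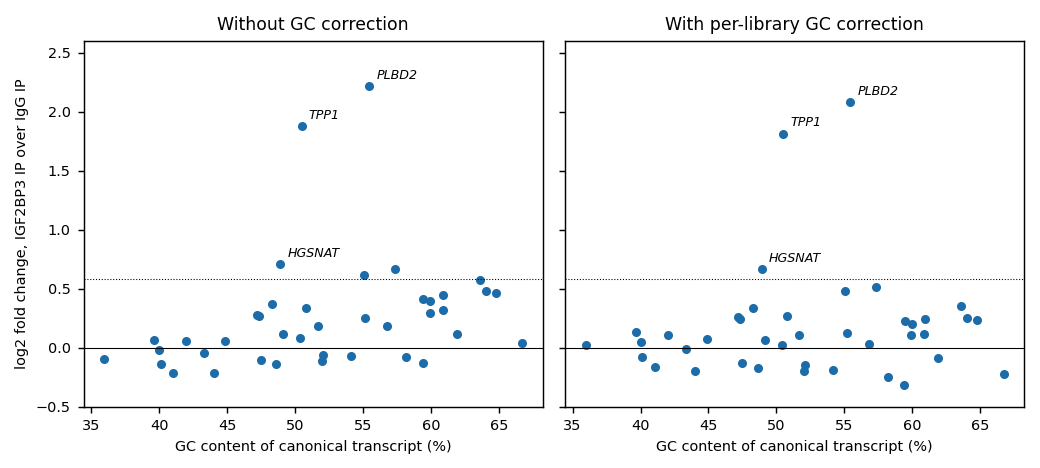
Log2 fold change of IGF2BP3 IP over IgG IP against the GC content of the canonical transcript for the 40 tested lysosomal mRNAs, without (left) and with (right) the GC correction; the dotted line is the 1.5-fold minimum. The upward drift on the left (rho 0.48) is weaker on the right (rho 0.14), while *PLBD2* and *TPP1* keep their place.

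Overlapping genes limit some of the values, since neither the counting program nor its use of strand is stated. In all, 29 of the 43 genes are overlapped by a gene of the count table. For 7 of them (*CLN3*, *CTSD*, *GLB1*, *HEXA*, *IDS*, *MAN2B1* and *MCOLN1*) a protein-coding gene lies on the same strand. *CTSD*, overlapped over 11203 bases, was at 9.72, 12.3 and 10.6 TPM in the IGF2BP3 IP and at 4.76, 5.80 and 5.58 TPM in the IgG IP, a wider gap than in counts. Besides *CTSZ*, the overlapping gene held as many counts as the member or more for *NPC1* (*RMC1*, opposite strand, log2 fold change -0.19), *NPC2* (*ISCA2*, opposite strand, -0.15), *GALNS* (*TRAPPC2L*, opposite strand, 0.09) and *MCOLN1* (*PNPLA6*, 6 bases on the same strand, 0.64).

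The wider lysosomal system was covered by lists of 104 further genes, of which 94 were tested, with a median log2 fold change of 0.03. Of these 94, 2 were past the thresholds as higher and 0 as lower, where 1.16% and 0% of all genes were, and 7 and 0 were past 1.5-fold at an unadjusted p-value under 0.05, where 558 and 59 of the 14507 genes were. With the replicate block the numbers were 6 and 0, where 3.56% and 0.103% of all genes were. Among 25 tested hydrolases and their cofactors outside the 43 genes, the median was 0.07. *MAN2B2*, an alpha-mannosidase, had the highest value, with 16.1, 24.6 and 15.0 normalized CPM in the IGF2BP3 IP against 6.61, 6.70 and 10.0 in the IgG IP, that is 1.26 on the log2 scale (SE 0.24) with a Benjamini-Hochberg adjusted p of 0.041 (edgeR, quasi-likelihood). The groups did not overlap. *CTSK*, a cysteine protease, had the lowest value, -0.61, on 8 to 34 counts per library with overlapping groups. The 22 tested membrane proteins had a median of 0.03, from -0.34 for *MFSD8* to 1.00 for *TMEM175*, a lysosomal ion channel.

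The machinery that delivers hydrolases to the lysosome was nearly flat, with a median of 0.08 over 17 tested genes. *AP1M1*, a subunit of the clathrin adaptor AP-1 that acts at the Golgi apparatus, was past the thresholds, with 30.0, 28.0 and 28.9 normalized CPM in the IGF2BP3 IP against 17.9, 19.3 and 20.2 in the control IP. The gene's log2 difference was 0.60 (SE 0.11) with an adjusted p of 0.037 (edgeR, quasi-likelihood). It lay next to the 1.5-fold minimum, and was 0.56 with the GC correction. *VPS29*, a retromer subunit, was the lowest of this list at -0.20. The 15 tested subunits and accessory proteins of the proton pump (V-ATPase) had a median of -0.04, from -0.21 for *ATP6V1G1* to 0.44 for *ATP6AP1*. The list of MiT/TFE factors and lysosomal nutrient sensing genes had a median of -0.01 over 15 tested genes, from -0.41 for *RRAGB*, a small GTPase of amino acid sensing, to 0.60 for *TFEB*. *TFEB* rested on 20 to 39 counts per library with overlapping groups. None of the genes of these last lists was past the thresholds. The calls of *MAN2B2* and *AP1M1* were both absent with the GC correction, where *MAN2B2* was at 1.10, and when any of IgG IP replicates 1 to 3 or of IGF2BP3 IP replicates 2 and 3 was left out. Leaving out IGF2BP3 IP replicate 1 kept the call of *MAN2B2* alone, as did RLE factors. With the GC correction and the replicate block together *MAN2B2* and *SLC36A1*, an amino acid transporter, were called. Without the expression filter *MAN2B2*, *SLC36A1* and *TMEM175* were called, and *AP1M1* was not.

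**Figure D5:**
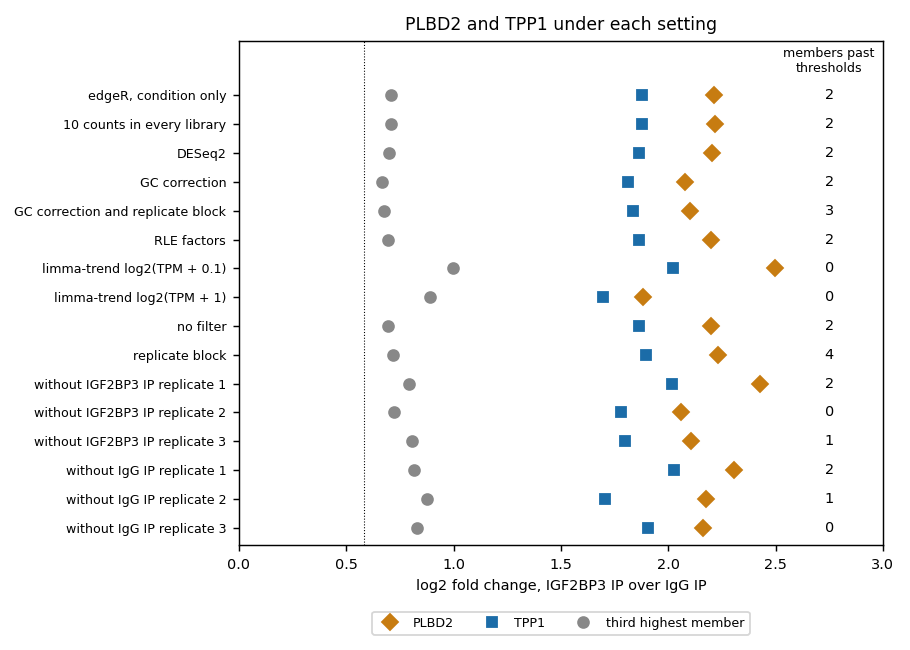
Log2 fold change of *PLBD2*, *TPP1* and the member with the third highest value under each setting, with the number of members past the thresholds at the right; the dotted line is the 1.5-fold minimum. *PLBD2* ranked 1 and *TPP1* ranked 2 under all settings shown, from 1.88 to 2.50 and from 1.70 to 2.03, while the number past the thresholds went from 0 to 4.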

How the data were processed

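RIP-seq libraries of WaGa cells (3 IgG IP, 3 IGF2BP3 IP) were grouped by their titles. The authors used STAR 2.7.9a for alignment to GRCh38, with GENCODE version 37, and RSEM for quantification. The deposited read counts are whole numbers per gene and not normalized, and for them the counting program is not given in the sources used here, whereas the deposited TPM and FPKM values come from RSEM. Low genes were removed by filterByExpr, TMM factors were applied, and the antibody was tested in edgeR 4.0.16 (R 4.3.3, quasi-likelihood). A gene was past the thresholds at 1.5-fold or more with a p-value, adjusted by Benjamini and Hochberg over all 14507 tested genes, under 0.05. Standard errors were derived by dividing a log2 fold change by the root of its F statistic.

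Alternatives were DESeq2 1.42.0, RLE factors, no filter, at least 10 counts in every library, a replicate block, a per-library loess correction (span 0.5) for transcript GC content without and with the block, limma-trend on log2(TPM + 1) or log2(TPM + 0.1) with limma 3.58.1, and leaving out each library. GC content, coordinates and motifs came from canonical transcripts of GENCODE version 44, in which 14479 of the tested genes were found. Deviations from the group means correlated across genes between libraries of the same number (0.64, 0.36 and 0.30 for replicates 1 to 3). IgG IP replicate 2 with IGF2BP3 IP replicate 3, and the reverse, correlated at 0.34 and 0.33, so only replicate 1 stood out as a pair. The main fit held the antibody only. The number was used in the replicate block and in the log2 ratios within libraries of the same number. Whether same-numbered libraries share a lysate is not stated.

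The members and the gene lists were chosen with earlier results of these data known. Values in every library were given for members past the thresholds, the 5 highest and 5 lowest log2 fold changes and the 5 highest mean TPM, and of the other lists for genes past the thresholds, with the highest and lowest named. Other genes were chosen after their values were seen. On simulated data with 14311 genes, edgeR found 85 of 100 genes raised 2-fold and 95 of 100 raised 3-fold, and made 11 false calls. The simulated libraries were independent, without the shared difference of replicate 1 and without a trend with GC content. These rates may therefore not hold for the real libraries. No columns were left out.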

Additional observations from a re-analysis of the deposited data

How the results depend on the processing

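*PLBD2* and *TPP1* kept their direction under every alternative run. Against 2 lysosomal mRNAs past the thresholds, the number was 4 with the replicate block (3 with the block and the GC correction), 0 with limma-trend on log2(TPM + 1) and 0 on log2(TPM + 0.1), with 5 past 1.5-fold and an unadjusted p-value under 0.05 on either scale, where 476 and 617 of all genes were, and 0 to 2 with a library left out. The cause was not tested, but limma-trend called 0 of all genes. Against 2 genes of the other lysosomal lists, the number was 6 with the replicate block, 1 with RLE factors, 0 with the GC correction (2 with this and the block), 0 and 0 with limma-trend on log2(TPM + 1) and log2(TPM + 0.1) (3, 8 and 8 past 1.5-fold at an unadjusted p-value under 0.05, where 317 of 14479, 476 of 14507 and 617 of 14507 genes were) and 0 to 1 with a library left out. Without the expression filter 3 genes of these other lists were past the thresholds, where 359 of 29184 genes were. The median log2 fold change of the tested members, 0.15, was 0.10 with the GC correction and 0.087 with this and the replicate block. It was 0.11 to 0.22 with a library left out. With log2(TPM + 1) it was 0.22 beside a median of 0.11 over all genes, and with log2(TPM + 0.1) it was 0.24 beside 0.13. The sign changed for 9 of the 40 with limma-trend and for 2 to 6 with a library left out, for 4 with the GC correction without or with the block, and for 1 with the block. The replicate block changed no other call among the members. At 4 to 17 counts per library (*ARSA*) the depth limits what can be seen.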

Other observations

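The difference of replicate 1 from replicates 2 and 3 touched some lysosomal mRNAs in both groups alike. Replicate 1 was the lowest library of both groups for 7 of the 40 tested members, where 29.3% of all tested genes had this order, and the highest of both for 5, where 25.7% had. *NPC1* and *NPC2* were lower in replicate 1 than in the mean of replicates 2 and 3, by a log2 difference of -0.53 and -0.58 in the IgG IP and of -0.78 and -0.74 in the IGF2BP3 IP. For both, the overlapping gene (*RMC1* and *ISCA2*) held more counts, so their reads are uncertain. *PSAP* differed by -0.40 and -0.35, whereas *GLA* differed by 0.44 and 0.39 and *LIPA* by 0.05 and -0.01. *PLBD2* and *TPP1* differed in opposite directions in the groups, by 0.26 and 0.39 in the IgG IP and by -0.74 and -0.45 in the IGF2BP3 IP, and this was not tested.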
